A study of Mus musculus with 16 samples.

Results

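The cytosolic ribosome is built from ribosomal RNA and about as many proteins as there are genes in the set described here. Its members were every protein-coding gene with a symbol of the form Rps or Rpl, a number and at most a closing a, x or l, together with Rplp0, Rplp1, Rplp2 and Rpsa. The rule used symbols only and no measured value, and it gave 80 genes of the 54532 in the count table (22046 of them protein-coding), 49 of the large subunit and 31 of the small subunit. RNA was sequenced from 16 differentiated mouse jejunal enteroid cultures, which are crypt-derived epithelial structures grown in gel, with 4 cultures in each of 4 groups. All groups were moved to differentiation medium before harvest. The control group was untreated and its labels give the genotype only as control, while the study's methods describe flox/flox cultures given vehicle in place of tamoxifen and a figure legend calls them littermates. The iKO_V group is MYO5BΔIEC, genotype Vil-CreERT2;Myo5b-flox/flox, given 1 µM 4-OH-tamoxifen for 24 h and then the PBS vehicle for 2 days. The iKO_C1 group has the same genotype and tamoxifen, with 100 nM Compound-1, an agonist of the lysophosphatidic acid receptor LPAR5, in place of vehicle for 2 days. The G519R group is MYO5B(G519R), genotype Vil-CreERT2;Myo5b-flox/G519R, given the same tamoxifen and no further agent. Cre is driven by the villin promoter, so deletion is limited to epithelial cells and to those that recombined, and tamoxifen exposure and genotype cannot be told apart in any comparison with control.

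Ribosomal protein genes are among the most abundantly transcribed genes of dividing and secretory cells, and their products are assembled in near equal numbers into each subunit. Their mRNAs usually begin with a run of pyrimidines (the 5′ TOP tract), through which the mTOR kinase adjusts translation and mRNA storage of the whole family. In the gut, crypt progenitors carry large numbers of ribosomes, and their content falls as cells mature. In bulk RNA, fewer cells of a type and less RNA per cell cannot be told apart.

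RefSeq start-site sequence (GRCm38.p6) was found for 60 of the 80 members. The following windows show 15 bases before and 15 bases from the annotated start, 5′ to 3′ on the gene's strand, for members whose values differ in the results, with the pyrimidine spelling CTTTC in capitals, or for Rpl26 the spelling CGGAAG.
Rplp2, chr7:141447636-141447665 (+): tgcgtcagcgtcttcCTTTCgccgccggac
Rpl35, chr2:39005117-39005146 (-): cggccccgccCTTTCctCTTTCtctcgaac
Rps27, chr3:90213634-90213663 (-): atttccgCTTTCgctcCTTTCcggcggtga
Rps10, chr17:27635230-27635259 (-): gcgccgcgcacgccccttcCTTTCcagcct
Rpl26, chr11:68901551-68901580 (+): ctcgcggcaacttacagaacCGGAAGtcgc

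CTTTC on the gene's strand was present in this 30-base window for 17 of 60 members (28.3%), against 4.76% of all 27025 genes in the table. Over the whole 300-base window it was present for 41 of 60 members (68.3%) and 37.9% of all genes. CTTCCG, the core bound by ETS-family factors, was read on either strand and was also present for 41 of 60 members (68.3%) over 300 bases, against 18.8% of all genes. These spellings were chosen after several others had been looked at, CTTTC and CTTCCG can overlap by 1 base, and a match describes the letters of a window and not a bound site.

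The targeted gene was looked at first. Myo5b, which encodes the motor protein myosin Vb, stood at 160, 230, 191 and 176 CPM (counts scaled to library size with TMM factors) in control cultures 1 to 4. It stood at 135, 109, 170 and 101 CPM in iKO_V, at 139, 153, 173 and 136 CPM in G519R, and at 149, 106, 87.2 and 101 CPM in iKO_C1. Only in iKO_C1 did its lower level pass the test (log2 fold change -0.77, SE 0.19, edgeR quasi-likelihood adjusted p = 0.0146). The adjusted p was 0.0503 for iKO_V (log2 fold change -0.55, SE 0.19) and 0.109 for G519R (log2 fold change -0.33, SE 0.14), and reads from a transcript lacking the deleted exon still count for this gene.

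Ribosomal protein genes took a smaller share of the RNA in all 3 groups with altered MYO5B. They held 7.90, 10.6, 11.3 and 12.7% of all gene counts in control cultures 1 to 4, a mean of 10.6% ± 2.00 (SD, n = 4). The share was 5.19% ± 0.497 (SD, n = 4) in iKO_V, where the cultures lay between 4.47 and 5.60%. It was 6.29% ± 1.15 (SD, n = 4) in G519R, between 4.61 and 7.18%, and 4.95% ± 1.18 (SD, n = 4) in iKO_C1, where the highest culture was at 6.59%. No culture of these 3 groups reached the lowest control culture. Total gene counts ran from 27804968 to 40101729 per culture, which is the depth behind every value given here. Counts on mitochondrially encoded genes moved in the same direction, at 8.86% ± 1.72 (SD, n = 4) in control, 5.25% ± 1.13 in iKO_V, 4.69% ± 0.487 in G519R and 4.83% ± 0.963 in iKO_C1. With those genes left out of the total, the ribosomal share was 11.7% in control and 5.47, 6.59 and 5.20% in iKO_V, G519R and iKO_C1.

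**Figure D1:**
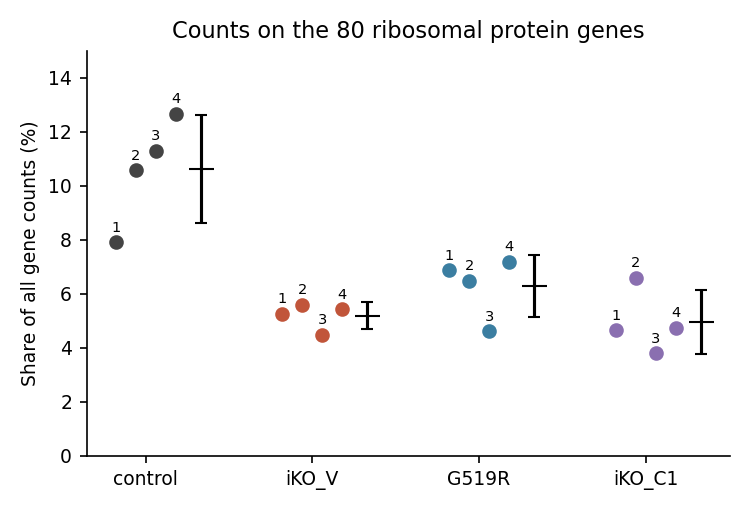
Share of all gene counts (%, y axis) on the 80 ribosomal protein genes in each culture of the 4 groups, with the replicate number above each point and the group mean ± SD (n = 4) beside it. The lowest control culture, 7.90%, lies above the highest culture of the other groups, 7.18%.

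Loss of MYO5B with vehicle was compared with control to ask which members changed. Of the 77 members with enough counts to test, 73 fell in iKO_V and none rose (edgeR quasi-likelihood test, adjusted p under 0.05), where 13.8% of all 17951 genes tested fell. The median log2 fold change of the members was -1.34, or 2.54-fold lower, and that of all genes tested was -0.01. The middle 50% of members lay between -1.43 and -1.23, so most members changed by nearly the same factor. For 57 of the 77 members every iKO_V culture lay below every control culture, as did 13.8% of all genes tested. Large and small subunit genes had medians of -1.32 (46 members) and -1.39 (31 members).

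By the counts of the gene alone, the members that fell most in iKO_V were Rpl17, at the rim of the exit tunnel of the large subunit, Rps27a, which is made as a fusion with ubiquitin, and Rpl30. The place of Rpl17 depends on how reads were split with its 22 near-identical copies, since it fell 3.77-fold alone and 2.83-fold with their counts added, when Rps27a (log2 fold change -1.74), Rps29 (-1.61), Rpl30 (-1.59) and others fell further. Rps27a stood at 1027, 1251, 1380 and 674 CPM in control cultures 1 to 4 and at 358, 462, 220 and 230 CPM in iKO_V (log2 fold change -1.76, SE 0.30, adjusted p = 0.0029). Rpl30 stood at 462, 801, 1083 and 1135 CPM in control and at 219, 362, 248 and 208 CPM in iKO_V (log2 fold change -1.74, SE 0.29, adjusted p = 0.0029). The groups did not overlap for either gene, although control culture 4 was the lowest control for Rps27a and control culture 1 for Rpl30. Rpl17 stood at 828, 930, 1020 and 1473 CPM in control and at 325, 318, 145 and 335 CPM in iKO_V (log2 fold change -1.91, SE 0.29, adjusted p = 0.0021). Its iKO_V culture 3 lay far below the other 3.

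The stalk, the flexible arm of the large subunit that recruits elongation factors, is built from 3 gene products, and differences in change among them were not tested. Rplp0, its base, stood at 4752 ± 682 CPM in control and 2311 ± 193 CPM in iKO_V (SD, n = 4; log2 fold change -1.03, SE 0.17), and Rplp1 had a log2 fold change of -1.34 (SE 0.27). Both calls were lost under alternatives, with an adjusted p of up to 0.0549 for Rplp0 and 0.0956 for Rplp1. Their log2 fold changes were then as little as -0.81 and -0.80. Rplp2, the partner of Rplp1 in the stalk dimers, stood at 737, 567, 650 and 793 CPM in control and at 545, 465, 358 and 497 CPM in iKO_V. That is a log2 fold change of -0.55 (SE 0.18, adjusted p = 0.042), and the highest iKO_V culture was below the lowest control culture. The call was lost under several alternatives, with an edgeR adjusted p of up to 0.404 and a log2 fold change of -0.24 with a transcript length trend taken out, and an adjusted p of up to 0.121 with 1 culture left out, which came without control culture 4 (log2 fold change -0.47). Rplp2 was the 1 member, of 76 without Rpl26, for which control culture 1 lay above the mean of the other controls. Of the mRNA channel genes, Rps3, whose product grips incoming mRNA, had a log2 fold change of -1.41 (SE 0.20), Rps14 of -1.32 (SE 0.19), Rps26 of -1.34 (SE 0.22) and Rps28 of -1.58 (SE 0.49). Rps2, at the mRNA entry, changed less, with a log2 fold change of -0.68 (SE 0.19, adjusted p = 0.021). The calls of Rps28 and Rps2 were lost under several alternatives, with an adjusted p of up to 0.137 and 0.122 and, with a transcript length trend taken out, log2 fold changes of -0.96 and -0.35. The pair that binds 5S ribosomal RNA and holds back MDM2 when assembly fails, Rpl5 and Rpl11, had log2 fold changes of -1.35 (SE 0.19) and -1.36 (SE 0.37). Rpl11 stood at 440 CPM in control culture 1 and between 1440 and 1855 CPM in the other 3, whereas iKO_V lay between 379 and 596 CPM, so its groups overlapped, and its adjusted p rose from 0.0207 to at most 0.0713 under the alternatives. Around the tunnel exit, where the nascent chain leaves, Rpl19, Rpl22, Rpl23a, Rpl31, Rpl35 and Rpl39 also fell, with log2 fold changes between -1.04 (Rpl19, SE 0.24) and -1.43 (Rpl35, SE 0.32). Of these, Rpl23a lost its call under several alternatives, with an adjusted p of up to 0.184 and a log2 fold change of as little as -0.82, and when any culture but control culture 1 was left out (adjusted p of up to 0.119). The call of Rpl19 was also lost under alternatives, narrowly, with an adjusted p of up to 0.051 and a log2 fold change of as little as -0.58.

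The 4 members that did not pass the test in iKO_V were Rpl26, Rps10, Rpl24 and Rps27l. Rps27l, a paralog of Rps27 that p53 activates, stood at 160, 288, 275 and 286 CPM in control and at 138, 218, 223 and 183 CPM in iKO_V (log2 fold change -0.40, SE 0.22, adjusted p = 0.21), and these groups overlapped. Its paralog Rps27 stood at 603, 959, 1051 and 1179 CPM in control and at 327, 309, 296 and 340 CPM in iKO_V, with no overlap (log2 fold change -1.57, SE 0.21, adjusted p = 0.0015). The difference between the paralogs was not itself tested. Rpl8, Rps9 and Rpl13a, named after their values were seen, stood with Rplp2 and Rps2 at the less changed end, with log2 fold changes of -0.81 (SE 0.21), -0.94 (SE 0.24) and -0.76 (SE 0.22). Rpl13a was counted at a much lower level than Rpl8, with a control mean of 79.0 against 1756 CPM. Exons of Gm45713, Mir5121 and Snord33 overlap those of Rpl13a on the same strand, and their part in its values was not tested.

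The G519R enteroids, which carry a missense allele over the floxed allele, were compared with the same controls. Here 56 of 77 members fell, where 13.7% of all 17829 genes tested fell, and 1 rose, where 13.1% of all genes tested rose. The median log2 fold change was -1.05, or 2.07-fold lower, against -0.05 over all genes tested. Every G519R culture lay below every control culture for 43 members, as for 13.8% of all genes tested. Rpl30 (log2 fold change -1.45, SE 0.30, adjusted p = 0.0077), Rps27 (-1.43, SE 0.24, adjusted p = 0.0035) and Rps15a (-1.35, SE 0.19, adjusted p = 0.0022) fell most by the counts of the gene alone. With near-identical copies added, Rps27 (-1.44) and Rps15a (-1.36) came first and Rpl30 (-1.29) followed Rpl26, Rps7 and Rps27a; Rpl30 held between 68.2 and 95.6% of the counts on itself and its copies. Rps15a, of the small subunit, stood at 1045, 1202, 1439 and 1490 CPM in control and at 545, 507, 371 and 605 CPM in G519R, without overlap. The 20 members that missed the threshold included Rplp2 (log2 fold change -0.26, SE 0.19), Rps2 (-0.42, SE 0.18), Rpl11 (-0.93, SE 0.37), Rpl23a (-1.07, SE 0.46) and Rps28 (-1.07, SE 0.48). For the last 3, control culture 1 lay below every G519R culture, at 440, 147 and 129 CPM. Without control culture 1, 73 members fell in G519R, 74 in iKO_V and 74 in iKO_C1. The share of all genes that fell in those fits is not given here, so these counts stand without it. The 1 member that rose was Rpl26.

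**Figure D2:**
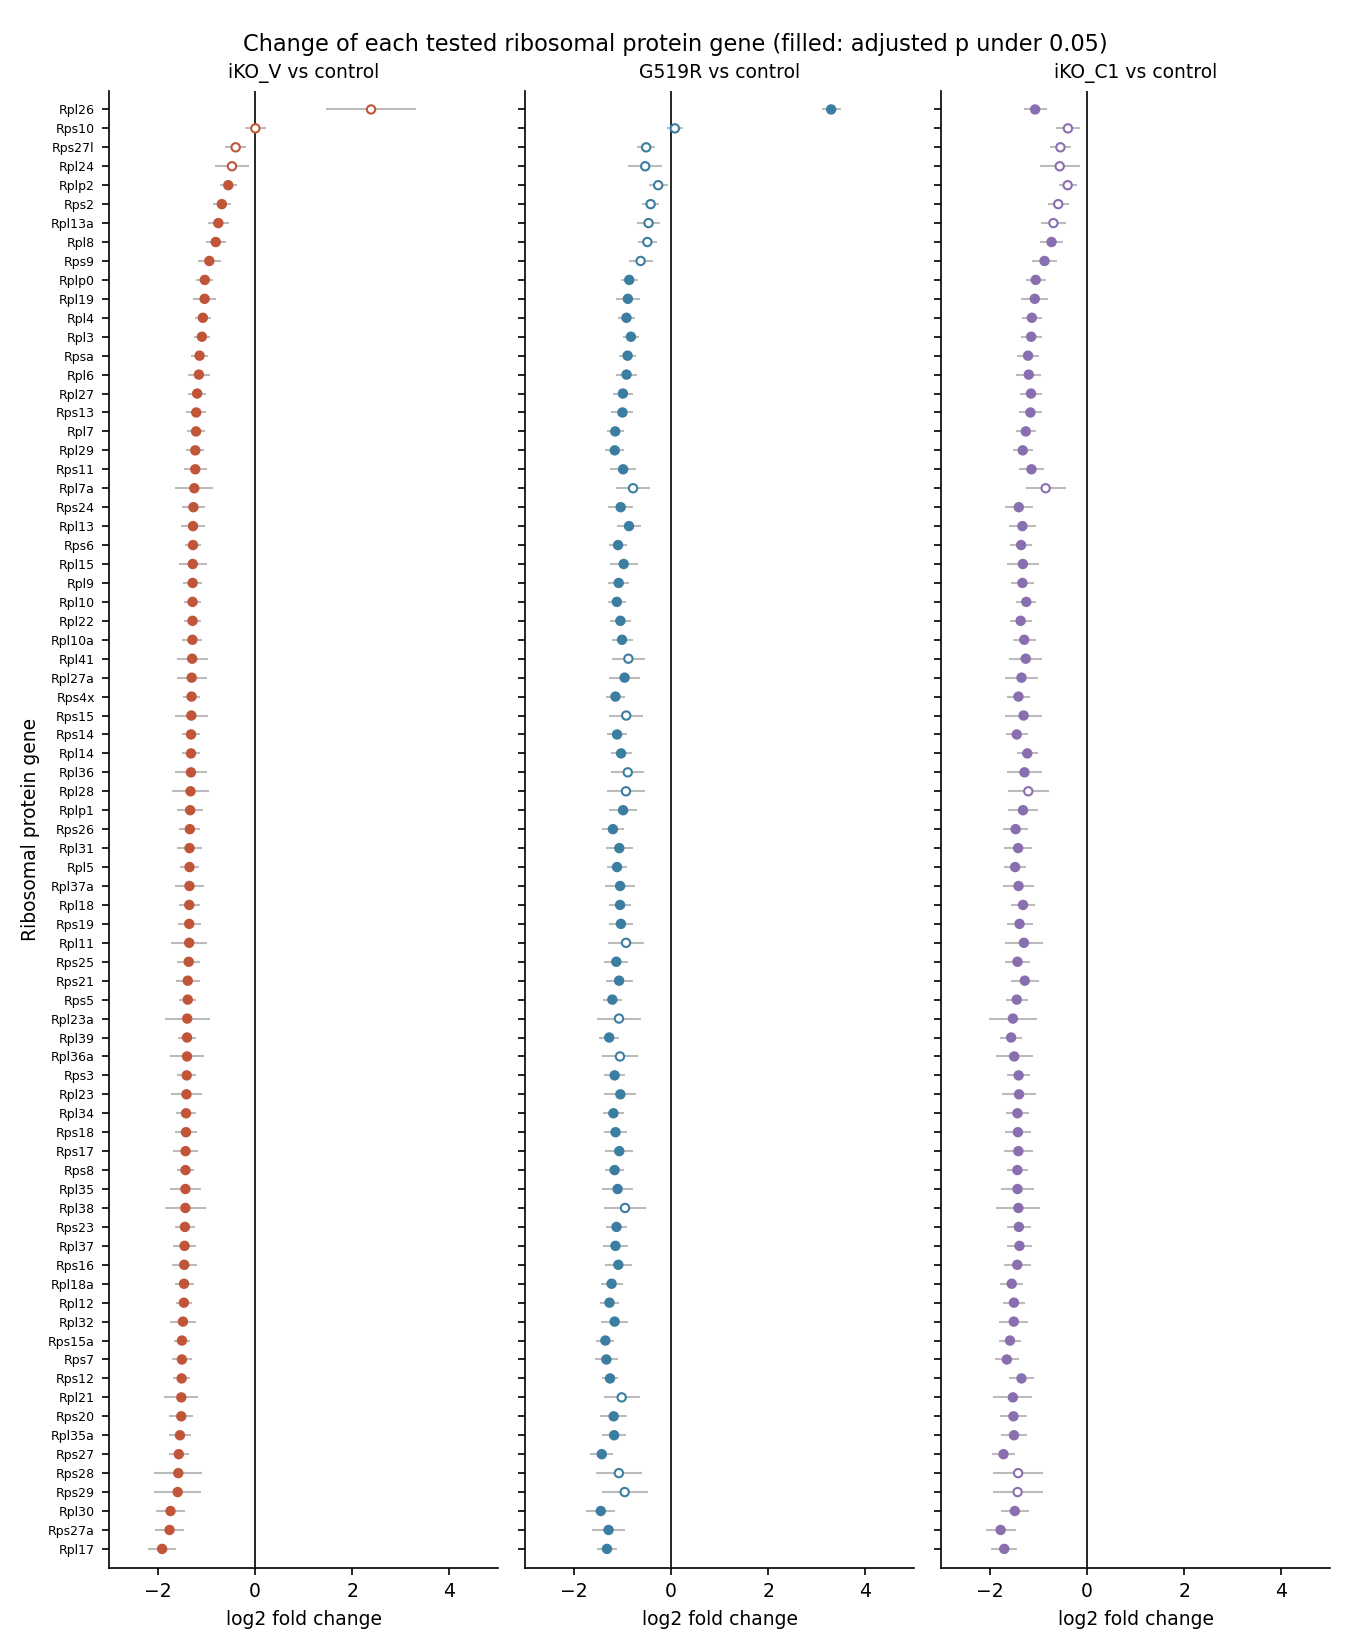
Log2 fold change (x axis, points with SE) of each of the 77 tested members (y axis, ordered by iKO_V against control) in the 3 comparisons with control; filled points have an edgeR adjusted p under 0.05. Most members lie in a narrow band around -1.34, -1.05 and -1.37, and Rpl26 lies far to the right in the first 2 panels.

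Compound-1-treated MYO5BΔIEC enteroids were compared with control and with the vehicle cultures. Against control, 67 of 77 members fell and none rose, where 13.7% of all 17937 genes tested fell. The median log2 fold change was -1.37, and for 47 members the groups did not overlap, as for 13.6% of all genes tested. Rps27a (log2 fold change -1.78, SE 0.31, adjusted p = 0.0048), Rps27 (-1.72, SE 0.24, adjusted p = 0.0040) and Rpl17 (-1.70, SE 0.26, adjusted p = 0.0041) fell most. Against vehicle, no member passed the edgeR test, where 0.0% of all 18037 genes tested did. At an unadjusted p under 0.05 there was 1 member and 1355 genes in all, and DESeq2 called 101 genes, none of them a member. The median log2 fold change of the members against vehicle was -0.03. Rps27a, for example, stood at 227, 483, 338 and 213 CPM with Compound-1, which overlaps the vehicle cultures (log2 fold change -0.04, SE 0.31). G519R and iKO_V were also set against each other, and 75 of 77 members were nominally higher in G519R, with a median log2 difference of 0.29. Of all 17943 genes tested, 8564 were nominally higher in G519R, with a median of -0.01. No member passed the edgeR test in that comparison either, where 0.00557% of all 17943 genes tested did. At an unadjusted p under 0.05 there were 9 members and 772 genes in all, and DESeq2 called 4 genes and no member. These comparisons share cultures and are not independent of each other.

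Rpl26, which sits beside the tunnel exit and whose protein is also a regulator of p53 translation, did not follow the other members. Its raw counts were 817, 1034, 936 and 1146 in control cultures 1 to 4, and 11615, 11306, 9041 and 12449 in G519R cultures 1 to 4. In iKO_V they were 480, 10042, 10273 and 401, and in iKO_C1 they were 482, 723, 487 and 436. The cultures thus fell at either a low or a high level, with all of G519R and iKO_V cultures 2 and 3 at the high level and nothing between 1146 and 9041 counts. The edgeR log2 fold change was 3.30 in G519R (SE 0.20, adjusted p = 0.000214), 2.39 in iKO_V (SE 0.92, adjusted p = 0.0767) and -1.07 in iKO_C1 (SE 0.24, adjusted p = 0.00985). Against vehicle it was -3.49 in iKO_C1 (SE 0.96, adjusted p = 0.53). The iKO_V mean of 173 CPM ± 186 (SD, n = 4) describes no culture of that group.

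Rpl26 (ENSMUSG00000060938) lies at chr11:68901583-68906989 (+) on GRCm38. A processed pseudogene, Gm15772 (ENSMUSG00000062353, chr5:3236431-3236868, +), matches its coding sequence in 433 of 435 bases (99.5%), so reads lying within the coding sequence can be told apart only where they cover 1 of 2 positions. Sequence of Rpl26 outside the coding sequence was not compared. The differences are C177T and T288C, counted from 1 at the first base of the start codon with the Rpl26 base first, in codons 59 and 96. The following 29-base windows, GENCODE sequence of the coding strand, have the differing base in capitals.
Rpl26 around position 177: gttcaggttgttcgCggacactacaaagg
Gm15772 around position 177: gttcaggttgttcgTggacactacaaagg
Rpl26 around position 288: ggcacaaccgtccaTgtgggcatccaccc
Gm15772 around position 288: ggcacaaccgtccaCgtgggcatccaccc

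Most reads of the pair were assigned to the pseudogene. Gm15772 held 43878, 46784, 57058 and 50188 counts in control cultures 1 to 4 and 12516, 12437, 10365 and 13445 in G519R. It held 18491, 11065, 11057 and 23075 in iKO_V and 21516, 22669, 16940 and 18397 in iKO_C1. Rpl26 took 1.83, 2.16, 1.61 and 2.23% of the pair in control cultures 1 to 4 and 47.6% ± 0.715 (SD, n = 4) in G519R. It took 2.53% (95% Wilson interval 2.32 to 2.76), 47.6% (46.9 to 48.3), 48.2% (47.5 to 48.8) and 1.71% (1.55 to 1.88) in iKO_V cultures 1 to 4, and 2.60% ± 0.419 (SD, n = 4) in iKO_C1. The intervals cover counting error only. The summed level of the pair behaved like the other members, at 1688 CPM ± 236 in control, 665 CPM ± 81.9 in iKO_V, 683 CPM ± 109 in G519R and 609 CPM ± 152 in iKO_C1 (SD, n = 4). With the counts of near-identical copies added to each member, Rpl26 was lower than control in iKO_V (log2 fold change -1.35, SE 0.17, edgeR adjusted p = 0.00149), in G519R (-1.31, SE 0.17, adjusted p = 0.00189) and in iKO_C1 (-1.49, SE 0.22, adjusted p = 0.00402). Over all alternatives, which hold both a fall and rises, the log2 fold change of Rpl26 in iKO_V ran from -1.35 to 2.87. Its adjusted p ran from 0.00149, that of the fall with copies added, to 0.523. The split between the loci, not the sum, carries the high and low levels of Rpl26. Why the split differs between cultures was not tested.

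**Figure D3:**
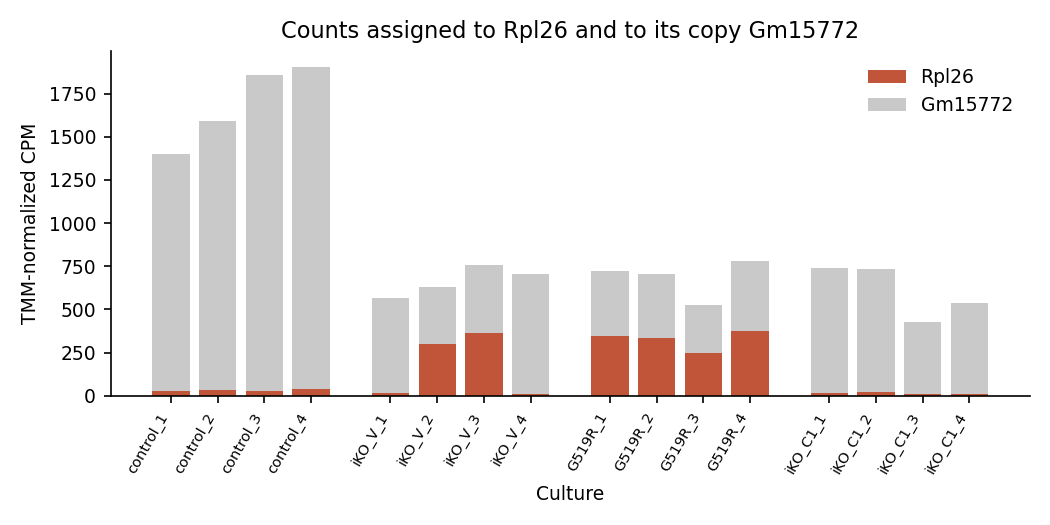
TMM-normalized CPM (y axis, stacked bars) assigned to Rpl26 and to its near-identical copy Gm15772 in each of the 16 cultures (x axis). Rpl26 fills about as much of the bar as the copy in G519R and in iKO_V cultures 2 and 3 (46.6 to 48.2%) and 1.61 to 3.09% of it elsewhere. The whole bars run from 1401 to 1902 CPM in control and from 428 to 781 CPM in the other groups. Their group means are 1688 CPM in control and between 609 and 683 CPM in the other groups.

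Other members also share their sequence with copies. Annotated genes matching at least 80% of a member's coding sequence at 95% identity or more numbered 526, for 73 of the 80 members, and 524 of them were pseudogenes. Rps10, near the mRNA entry, held only 2.46% of the counts on itself and its 2 copies, and Rpl24, at the subunit interface, 11.8%. Rps10 stood at 6.02, 9.24, 7.28 and 8.89 CPM in control and at 8.75, 6.78, 6.34 and 9.58 CPM in iKO_V (log2 fold change 0.01, SE 0.21), with complete overlap. With its copies added it was lower in iKO_V (log2 fold change -1.15, SE 0.23, adjusted p = 0.00554) and in G519R (-0.98, SE 0.24, adjusted p = 0.016). Rpl24 with its copies had a log2 fold change of -1.31 in iKO_V (SE 0.37, adjusted p = 0.025), and alone of -0.47 (SE 0.35). Over all cultures together Rpl24 held 653 counts and its copies 4902, so even their sum was far below the counts of most members. Another annotated gene overlaps 27 members on the same strand, among them Rpl24 (Gm28037) and Rps10 (RPS10-NUDT3). The part of these overlaps in the low counts of Rpl24 and Rps10 was not tested. Rpl17 held between 20.5 and 63.7% of the counts on itself and its 22 copies, with the lowest share in iKO_V culture 3, and with copies added it was 2.83-fold lower in iKO_V (SE 0.18 on the log2 scale, adjusted p = 0.00147), with log2 fold changes of -1.61 (SE 0.22) in iKO_C1 and -1.29 (SE 0.20) in G519R. In all, 76 of 77 members fell in iKO_V, 58 in G519R and 69 in iKO_C1 when copies were added, and none rose. The share of all genes that fell in those fits is not given here, so these counts stand without it. Values of these members alone are therefore uncertain.

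Compared per length, levels among members were uneven. FPKM values, computed by the authors per kilobase of the gene's summed exons, had a median of 402 over the 80 members (mean of 16 cultures), and 38 of the 100 protein-coding genes with the highest mean FPKM were members. Rplp1 (3359 FPKM), Rplp0 (1773 FPKM) and Rpl36 (1429 FPKM) were highest. The length used was 383 bases for Rpl36, equal to its main annotated transcript, and 3526 bases for Rpl35a, whose main transcript has 491. The order by FPKM therefore also follows this length. Rpl36 had a control mean of 949 CPM, and Rpl4, with 3945 CPM, had a lower FPKM (1187). Rpl3l, Rpl39l and Rpl10l, the muscle- and testis-type paralogs, were lowest, and Rpl10l had 0 counts in every culture, which allows up to 3 counts, or at most 0.108 CPM in the shallowest culture. Across the 16 cultures the members moved together. For 66 of the 77 members with at least 10 counts everywhere, the log2 CPM had a Pearson r above 0.9 with the mean of the others (median 0.965), a description over cultures that also share their group differences. Rpl26 (r = -0.04), Rps10 (r = 0.48) and Rpl24 (r = 0.71) were least like the rest. Rpl26 summed with Gm15772 had r = 0.91.

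Control culture 1 stood apart from the other controls in these genes. Over 76 members without Rpl26, its mean log2 CPM was 9.43, where control cultures 2, 3 and 4 had 10.22, 10.35 and 10.52. The iKO_V cultures lay between 8.69 and 8.98, and the highest G519R and iKO_C1 cultures, at 9.42 and 9.35, came close to it. The gap differed widely among members. It was -2.64 log2 units for Rps28 (207 coding bases), -2.58 for Rpl23a (468), -2.51 for Rps29 (168) and -1.85 for Rpl11 (534), so wide gaps were not confined to the shortest members. Rps28 was at 129 CPM in control culture 1 and at 746, 714 and 977 CPM in the other controls, while Rplp2, of 345 coding bases, was 0.15 log2 units above their mean. Across the 76 members the gap had a Spearman rho of 0.49 with coding length and -0.12 with coding GC content. The 11 members with at least 750 coding bases exceeded the 17 with at most 350 by 2.01 log2 units in control culture 1 and by 1.25 to 1.40 in the other controls, against 1.64 ± 0.146 in iKO_V, 1.58 ± 0.128 in G519R and 1.63 ± 0.172 in iKO_C1 (SD, n = 4). Log2 fold changes in G519R had rho 0.21 with coding length and 0.45 with GC content, and in iKO_V 0.45 and 0.26. These are descriptions across genes, which are not independent replicates. With a transcript length trend taken out of each library, the median of the members was -0.89 in iKO_V, -0.66 in G519R and -0.90 in iKO_C1.

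**Figure D4:**
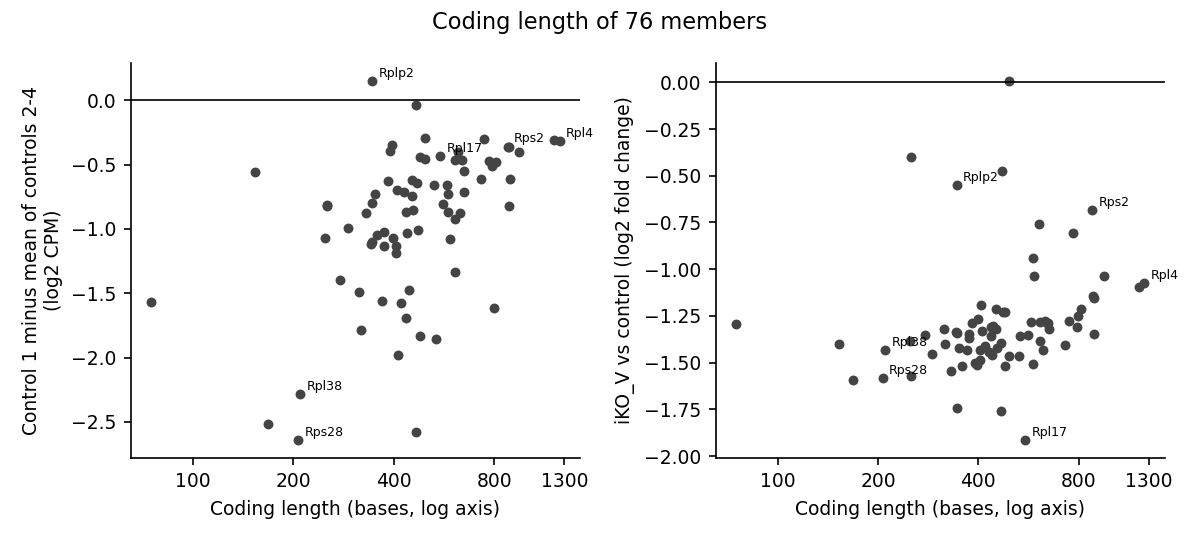
Coding length (bases, log axis) of 76 members against the log2 CPM difference between control culture 1 and the mean of the other 3 controls (left) and against the log2 fold change of iKO_V from control (right). In the left panel the 17 members of at most 350 coding bases run from -2.64 (Rps28) to 0.15 (Rplp2) and Rpl4, a long member, lies at -0.31. In the right panel the middle 50% of members lie between -1.43 and -1.23.

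Genes that work with the ribosomal proteins were read from the same fits. Rack1, a scaffold on the small subunit, and Fau, whose product includes RPS30, fell in iKO_V (log2 fold change -1.12, SE 0.17 and -1.26, SE 0.20) and in G519R (-0.95, SE 0.17 and -1.07, SE 0.22). Of all genes tested, 13.5% rose and 13.8% fell in iKO_V, and 13.1% rose and 13.7% fell in G519R, and the counts of the following lists stand beside these shares. Of 21 other TOP mRNAs, chiefly translation factors, 12 fell in iKO_V and 11 in G519R, none rose, and the medians were -0.65 and -0.56. Eef1a1, which delivers aminoacyl-tRNA, fell (log2 fold change -1.05, SE 0.20 in iKO_V), as did Eef1b2 (-1.23, SE 0.20), Naca (-1.16, SE 0.22) and Tpt1 (-1.04, SE 0.19). The iKO_V call of Eef1a1 was lost under alternatives (adjusted p of up to 0.162), with a log2 fold change of as little as -0.95. Eef2, the translocase, had a log2 fold change of 0.26 in iKO_V (SE 0.18, adjusted p = 0.32), with no call. Of 42 ribosome assembly genes, 19 fell in iKO_V (median -0.49) and 19 fell and 1 rose in G519R (median -0.40). Nop58, a core protein of box C/D particles, fell in iKO_V (log2 fold change -1.10, SE 0.21) and G519R (-0.96, SE 0.13), and Pno1, a small subunit assembly factor, in both (-0.97, SE 0.16 and -0.95, SE 0.14). Of 29 RNA polymerase I and III genes tested, 9 fell in iKO_V and 8 fell and 1 rose in G519R, with medians of -0.37 and -0.30. Twistnb, of RNA polymerase I, was at -0.87 (SE 0.18) and -0.91 (SE 0.13). Of 17 regulators of ribosome production, 4 rose and 5 fell in iKO_V, and 5 rose and 3 fell in G519R. Eif4ebp1, a translation repressor that mTOR inactivates, stood at 157, 141, 156 and 149 CPM in control and at 104, 89.6, 59.4 and 131 CPM in iKO_V, where it fell (log2 fold change -0.64, SE 0.21, adjusted p = 0.042), and it did not pass the test in G519R (-0.41, SE 0.19). Its iKO_V call was also lost under alternatives, with an adjusted p of up to 0.119. The other regulators that fell in iKO_V were Rps6kb1 (-0.55, SE 0.12), Larp4 (-0.50, SE 0.13), Rheb (-0.43, SE 0.13) and Mycn (-0.89, SE 0.26). Mtor (0.75, SE 0.17) and Eif4ebp2 (0.70, SE 0.24) rose in iKO_V. These 6 genes were named after their values were seen. Tsc2, a brake on mTOR, also rose (log2 fold change 0.96, SE 0.17 and 0.86, SE 0.17), and so did Rptor, a subunit of the mTOR complex 1 (0.90, SE 0.17 and 0.84, SE 0.16). Myc was at 188, 83.2, 88.1 and 83.2 CPM in control cultures 1 to 4 and did not pass the test in iKO_V (log2 fold change 0.40, SE 0.26). Of 3 paralogs outside the rule, 2 fell in iKO_V and 1 in G519R. Rpl7l1 fell in iKO_V (log2 fold change -0.54, SE 0.15) and was at -0.37 (SE 0.13) in G519R, short of the threshold. The iKO_V call of Rpl7l1 was lost under alternatives (adjusted p of up to 0.0571, log2 fold change of as little as -0.505). With 1 culture left out its adjusted p reached 0.078. Rpl22l1 fell in iKO_V (log2 fold change -1.70, SE 0.33) and G519R (-1.15, SE 0.37), beside its paralog Rpl22 at -1.29 (SE 0.18) and -1.04 (SE 0.21). The G519R call of Rpl22l1 was lost under several alternatives (adjusted p of up to 0.106, log2 fold change of as little as -0.66) and, with 1 culture left out, reached an adjusted p of 0.115.

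**Figure D5:**
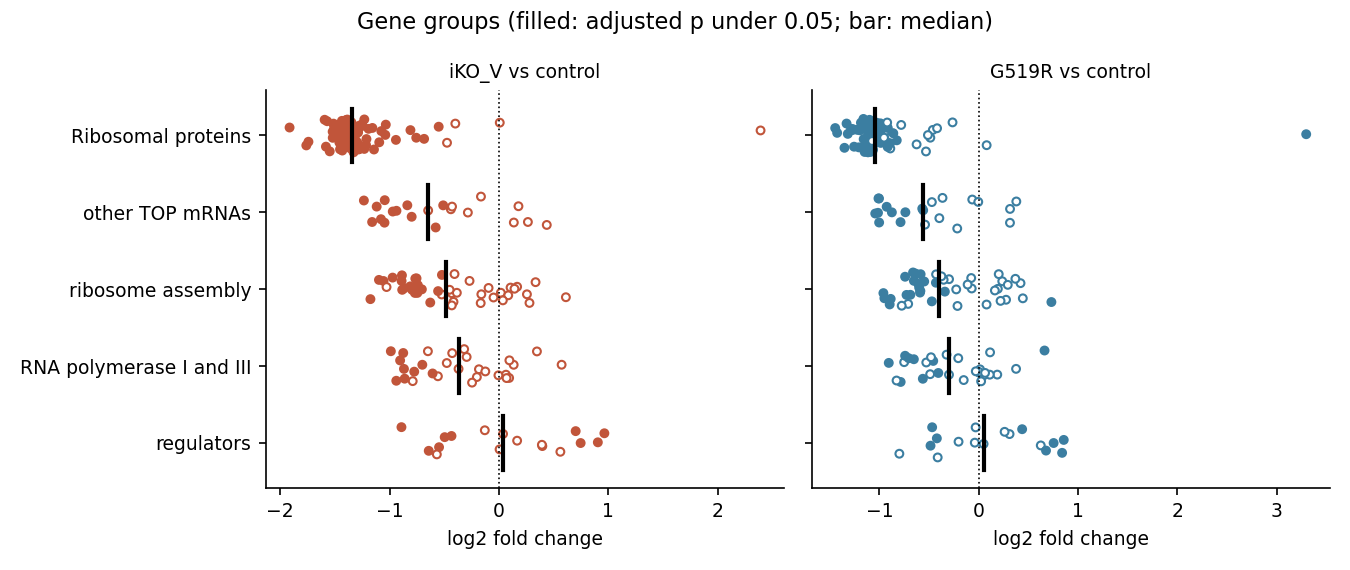
Log2 fold change (x axis) of each tested gene in 5 gene groups (y axis, points; filled with an edgeR adjusted p under 0.05) in iKO_V and in G519R against control, with a bar at each median. The ribosomal protein medians are -1.34 and -1.05, those of other TOP mRNAs -0.65 and -0.56, and those of the regulators 0.04 and 0.05.

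Markers of epithelium were present in every culture, with a summed level of 5168 CPM ± 462 in control, 7466 CPM ± 67.1 in iKO_V, 7095 CPM ± 736 in G519R and 9279 CPM ± 1392 in iKO_C1 (SD, n = 4). Of 7 such genes 4 rose in iKO_V and none fell, Vil1 among them (log2 fold change 1.08, SE 0.20). The 7 genes of stem and dividing cells did not move together. Their medians were -0.38 in iKO_V, -0.05 in G519R and -0.30 in iKO_C1, while their summed levels were 5564 CPM ± 1729 in control, 2171 CPM ± 591 in iKO_V, 2927 CPM ± 635 in G519R and 1919 CPM ± 724 in iKO_C1. Of the 7, Olfm4 (log2 fold change -2.26, SE 0.51), Pcna (-0.87, SE 0.19) and Top2a (-0.55, SE 0.15) fell in iKO_V and Lgr5 did not pass the test (0.16, SE 0.24). Only Olfm4 and Pcna fell in G519R. The part of these genes in the fall of the ribosomal protein genes was not tested. Fibroblast, endothelial and red blood cell markers summed to at most 0.956, 1.35 and 0.390 CPM in any culture, and immune markers, led by Cd74 and Lyz2, to between 3.90 and 147 CPM. Neither of these 2 immune genes passed the test against control in any group. The fibroblast gene Col1a1 passed it in G519R (log2 fold change 2.39, SE 0.79, adjusted p = 0.0476), where all 5 fibroblast markers together reached at most 0.871 CPM.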

How the data were processed

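Libraries were poly-A selected RNA-seq. Per the submitters' notes and methods, the authors aligned reads with STAR to GRCm38 (mm10) and counted them per gene with HTSeq. The deposited counts are raw, whole numbers per gene. The deposited FPKM values were computed by the authors from those counts and the gene length they deposited, with lengths given in bases. How reads matching several loci were counted is not given in the sources used here.

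Counts were tested with edgeR 4.0.16 (quasi-likelihood F test, TMM scaling, 2 groups per fit, at least 10 counts in at least 2 of 8 libraries, Benjamini-Hochberg adjustment over all genes tested, threshold 0.05). SEs were derived from the F statistic. Displayed CPM values use TMM factors over 16 cultures, and log2 CPM adds 0.5. Near-identical copies were found by BLAST+ 2.17.0 of GENCODE coding sequences against GENCODE transcripts. DESeq2 1.42.0 and limma 3.58.1 on log2(FPKM + 1) served as alternatives. The edgeR fit was tested on simulated data.

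Members and gene lists were chosen with earlier results of these data known. Genes were named by rule: Rpl26; members changing most per comparison; highest and lowest FPKM; least correlated; members of fixed role groups; and from each other list the highest and most changed. Exceptions are marked, and cell type marker genes were named after their values were seen. The labels number 4 cultures per group, from 4 mice according to a legend of the study. Paneth, goblet, enteroendocrine, tuft and absorptive enterocyte markers are given in the closing section.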

Additional observations from a re-analysis of the deposited data

Results flagged for a closer look

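In 213 groups of 4 cultures examined for the named genes and the count shares, 18 had a highest or lowest culture that stood apart from the other 3 by more than Dixon's 95% critical value allows, which chance exceeds in about 5% of groups. In CPM, control culture 1 stood apart with Myc at 188, Nhp2 at 74.4, Polr2k at 8.34 and Rps27l at 160, where the other controls were at 83.2 to 88.1, 228 to 244, 21.4 to 23.2 and 275 to 288. iKO_V culture 3 stood apart with Rpl17 at 145, Rpl23a at 162, Rplp1 at 887 and Nhp2 at 56.2. iKO_V culture 4 stood apart with Nop58 at 211, Pno1 at 65.5, Twistnb at 41.3 and Rps15a at 522. G519R culture 4 stood apart with Nop58 at 195 and Pno1 at 63.4, G519R culture 3 with Eif4ebp1 at 68.8 and Rpl36 at 319, and G519R culture 1 with Rps10 at 9.08. In iKO_C1, culture 2 stood apart with Znrd1 at 19.96.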

How the results depend on the processing

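Counts of members called kept within 1.5 times their value under every alternative run in each of the 5 comparisons. The count of members that fell, leaving out each culture in turn, ran from 60 to 74 in iKO_V, 41 to 73 in G519R and 56 to 74 in iKO_C1 against control; the highest of each came without control culture 1. On FPKM (limma, pseudocounts 1 and 0.1) it was 58 and 56 in iKO_V, 43 and 42 in G519R and 56 and 56 in iKO_C1. The share of all genes that fell under each alternative is not given beside these counts. No member was called between iKO_C1 and iKO_V or between G519R and iKO_V under any alternative. With the replicate number as a block, 62 members fell in iKO_V, 48 in G519R and 71 in iKO_C1; no comparison had a correlation over 0.1 between the deviations of all 4 same-numbered pairs, so the numbers were not taken to pair the cultures. In G519R against iKO_V these correlations were 0.12, 0.06, 0.41 and 0.52 and 3 of 4 cultures correlated best with their own number, a hint of pairing from the data, and in the other comparisons they lay between -0.19 and 0.20. Near-identical copies and the transcript length trend were alternatives chosen after seeing the data. With copies added, Rpl26 turned from 2.39 to -1.35 in iKO_V and from 3.30 to -1.31 in G519R. With the transcript length trend as an offset, the members' medians moved from -1.34 to -0.89, from -1.05 to -0.66 and from -1.37 to -0.90, and with the gene length trend to -1.16, -0.87 and -1.18. Rpl26 in iKO_V passed the threshold with no filter, with all groups in 1 fit, with the transcript length trend (2.87) and without iKO_V culture 1 or 4 (up to 2.78), and in iKO_C1 it did not pass with all groups in 1 fit or the transcript length trend (-0.57). The cause was not tested. Among named genes, limma on FPKM lost 25 (pseudocount 1) and 27 (pseudocount 0.1) calls, the replicate block 16, the transcript length trend 15 and the gene length trend 10. Leaving out control culture 3 or 4 lost 24 each and control culture 2 lost 20, and leaving out a culture of another group lost at most 10. Over all alternatives but those leaving out a culture, the calls whose adjusted p passed 0.1 were, in iKO_V, Rplp2 (0.404), Rpl23a (0.184), Polr2k (0.170), Eef1a1 (0.162), Rps28 (0.137), Rps2 (0.122) and Eif4ebp1 (0.119), in G519R Rplp1 (0.264), Eef1a1 (0.216), Rplp0 (0.118), Ncl (0.116) and Rpl22l1 (0.106), and in iKO_C1 Rpl26 (0.269), Polr2k (0.232), Eef1a1 (0.204), Znrd1 (0.149), Rpl23a (0.138) and Rplp1 (0.114).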

Other observations

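Markers of other epithelial lineages were set beside the ribosomal protein genes as values. Of all genes tested against control, 13.5% rose and 13.8% fell in iKO_V, and 13.1% rose and 13.7% fell in G519R. In iKO_C1, 2820 of all 17937 genes tested rose and 2455 (13.7%) fell. Of 3 Paneth genes, Lyz1 fell in iKO_V and in G519R (medians -0.75 and -0.84). Of 3 goblet genes, Fcgbp rose in both groups and Tff3 fell in G519R (medians 0.66 and 0.38). Of 3 enteroendocrine genes, Chga and Chgb rose in iKO_V and Chga in G519R (medians 0.70 and 0.31). Of 3 tuft genes, Pou2f3 fell in each and Trpm5, Dclk1 and Pou2f3 fell in iKO_C1 against control (medians -0.25, -0.19 and -1.33). Of 6 absorptive enterocyte genes, 1 rose in iKO_V (Alpi, log2 fold change 1.23, SE 0.30) and 1 fell in G519R (Sis, -1.10, SE 0.36), while in iKO_C1 3 fell and 1 rose (median -0.97). Their summed level was 10324 CPM ± 5344 in control, 7808 CPM ± 2683 in iKO_V, 5886 CPM ± 1086 in G519R and 5205 CPM ± 765 in iKO_C1 (SD, n = 4). Control culture 1, which also stood apart in the ribosomal protein genes, was at 2580 CPM, and the other controls lay between 11907 and 14858 CPM. Their part in the lower ribosomal protein levels was not tested.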
